A study of Mus musculus with 2 samples.

Results

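The 10 genes described here are transcription factors, products and regulators of the epithelial-to-mesenchymal transition (EMT), in which epithelial cells lose their junctions and take on a migratory, mesenchymal form. They were chosen by name, 5 EMT transcription factors (Snai1, Snai2, Zeb1, Zeb2 and Twist1), the mesenchymal products Vim and Fn1, and the epithelial regulators Esrp1, Esrp2 and Grhl2, and all 10 were found among 55468 genes of the table. RNA from 1 library of each group was sequenced: KPC2 cells, a mouse pancreatic cancer line, carrying resistance to gemcitabine after long-term treatment and kept in 260 ng/mL of the drug, and KPC2 wild type cells, which received none. Both were grown in the same serum-containing medium, and the labels give no passage, clone or number of cultures for either. Gemcitabine is a deoxycytidine analogue that blocks DNA synthesis. Because the drug was in the medium of the resistant cells alone, its presence and a lasting state of these cells cannot be told apart. With no replicates, every difference below describes 2 libraries and has no test.

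In textbook accounts the SNAIL, ZEB and TWIST factors bind short E-box sequences in DNA, switch off epithelial adhesion genes such as Cdh1 and favour mesenchymal genes such as Vim and Fn1. ESRP1 and ESRP2 are RNA-binding proteins that make epithelial cells include or skip particular exons, and GRHL2 keeps epithelial genes active and opposes ZEB1. In pancreatic cancer, Zeb1 in particular is known for its part in invasion and drug resistance.

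The genes of the set differed both in level and in how far apart the libraries lay. Vim, Zeb1 and Esrp2 were expressed in both libraries at levels within 2-fold of each other. Snai2 and Fn1 were several-fold higher in resistant cells, Zeb2 was low in both, and Snai1, Twist1, Esrp1 and Grhl2 were at or near 0 in both. Levels are given as FPKM, fragments per length of transcript and per size of the library, a scale that allows genes of different length to be compared. A gene that reached 1 FPKM in either library was called measured; 12193 genes were, among them 5 of the 10 (Snai2, Zeb1, Vim, Fn1 and Esrp2). Differences are log2 ratios of resistant over wild type with 1 FPKM added to each value, so those of low genes are understated, and a log2 ratio of 1 or more in size is called at least 2-fold. By this measure resistant cells had 2 of the 10 (Snai2 and Fn1) at least 2-fold higher, beside 7.90% of all measured genes. None of the 10 (0) was at least 2-fold lower, beside 8.37% of all measured genes. Both shares are over measured genes, of which the set holds 5, Snai2 and Fn1 among them. With 1 FPKM added, a gene below 1 FPKM in both libraries cannot reach 2-fold, so the other 5 could not be called. The same shares, 7.90% higher and 8.37% lower, are the background for the counts of every list below. The median log2 ratio was -0.07 over the 5 measured genes of the set and 0.02 over all measured genes; over all 10, with those near 0, it was -0.03.

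Low values in the table lay on whole-fragment steps, which gave an approximate number of fragments behind each value. Intervals below are exact Poisson intervals of those fragments, or exact binomial ones for a ratio, at 95%, and cover counting error only, not the spread between cultures. Where a gene has several transcripts, they take the length of its longest one.

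**Figure D1:**
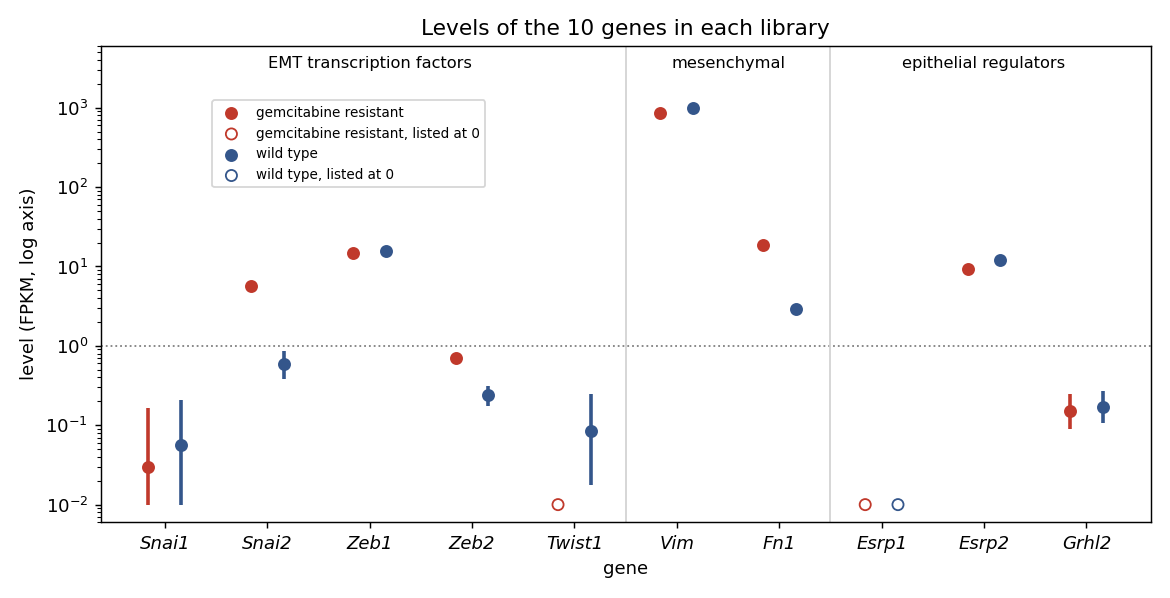
Level of each of the 10 genes in resistant (red) and wild type (blue) cells, in FPKM on a log axis. Points are the 1 library of each group, bars are 95% Poisson intervals of the fragments behind a value (cut at the lower edge), open circles at the bottom mark values listed at 0, and the dotted line is 1 FPKM. Snai2 and Fn1 are the 2 genes above 1 FPKM in resistant cells whose points lie clearly apart, at 5.62 against 0.58 and 18.6 against 2.93 FPKM.

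Among the EMT transcription factors of the set, Zeb1 was the most abundant in both libraries and Snai2 differed most between them. Snai2, which encodes SLUG, a zinc finger repressor of epithelial genes, stood at 5.62 FPKM in resistant cells and 0.58 FPKM in wild type cells. It has 1 annotated transcript of 2021 bases on chromosome 16 of GRCm38 (14705852 to 14709385), and its values corresponded to 243 fragments in the resistant and 26 in the wild type library. The FPKM ratio was 9.66 (counting interval 6.43 to 15.1) and the log2 ratio 2.07, the 98.4 percentile of measured genes. Snai2 passed the level filter through the resistant library alone. The filter itself favours such a difference: of 612 measured genes below 1 FPKM in wild type cells, 318 lay past the 2-fold line on the resistant side. In the authors' deposited table, Snai2 had a log2 fold change of 3.27 without a pseudocount, p = 0.0229 and q = 0.869, and was not called.

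Zeb1, a zinc finger and homeodomain repressor on chromosome 18 (5591860 to 5775467), stood at 14.99 FPKM in resistant and 15.8 FPKM in wild type cells. The counting intervals, 14.3 to 15.7 FPKM in resistant and 15.2 to 16.5 FPKM in wild type cells, overlapped, and the FPKM ratio was 0.95 (0.89 to 1.01). In both libraries Zeb1 lay a little above the middle of measured genes, at the 59.7 percentile in resistant and the 61.8 percentile in wild type cells.

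Zeb2, its paralogue on chromosome 2 (44983632 to 45117395), was far lower than Zeb1, at 0.69 FPKM in resistant and 0.24 FPKM in wild type cells. It stayed below 1 FPKM in both libraries and so is not counted above, but its FPKM ratio was 2.90 (counting interval 2.11 to 4.10). That interval assumes the longest of 29 transcripts, 9124 bases, on which the values rest on 144 fragments in resistant and 51 in wild type cells. With the shortest, of 240 bases, the interval takes in 1, and the same holds for Esrp2. The antisense gene Zeb2os shares 653 exon bases with Zeb2 and stood at 0.04 FPKM in resistant and 0.09 FPKM in wild type cells.

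Snai1, which encodes SNAIL, a zinc finger repressor of Cdh1, lies on chromosome 2 (167538195 to 167542814) and was near the limit of detection, with 1 fragment (0.03 FPKM) in the resistant and 2 fragments (0.06 FPKM) in the wild type library. The ratio of these counts had an interval of 0.009 to 9.92, so no difference was detectable at this depth. Twist1, a basic helix-loop-helix factor with 1 transcript of 1628 bases on chromosome 12 (33957671 to 33959829), was listed at 0 in resistant cells and rested on 3 fragments (0.09 FPKM) in wild type cells. A count of 0 allows up to 3 fragments, or 0.09 FPKM, in the resistant library, so the libraries were not distinguishable for Twist1 either. Neither gene was tested in the authors' deposited table.

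The mesenchymal products behaved differently from each other. Vim, which encodes the intermediate filament vimentin and lies on chromosome 2 (13573927 to 13582826), stood at 856 FPKM in resistant and 991 FPKM in wild type cells. That is the 98.9 percentile of measured genes in the resistant library and the 99.3 percentile in the wild type library, and the log2 ratio was -0.21. Counting error was small beside the difference, with 849 to 863 FPKM in resistant and 983 to 999 FPKM in wild type cells, but how far 2 cultures of 1 kind would differ is not known.

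Fn1, which encodes the matrix glycoprotein fibronectin and lies on chromosome 1 (71585520 to 71653200), stood at 18.6 FPKM in resistant and 2.93 FPKM in wild type cells. The FPKM ratio was 6.34 (5.80 to 6.94) and the log2 ratio 2.32, at the 98.8 percentile of measured genes, on about 3512 fragments of the longest transcript in resistant and 572 in wild type cells. Among measured genes the level of Fn1 lay at the 65.1 percentile in resistant and at the 20.3 percentile in wild type cells. In the authors' deposited table Fn1 had p = 0.00075 and q = 0.118 and was not called. Of the 10 genes, the authors tested 6 and called 0.

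The epithelial regulators were not expressed alike. Esrp2 stood at 9.33 FPKM in resistant and 12.2 FPKM in wild type cells, a log2 ratio of -0.35 and an FPKM ratio of 0.77 (0.70 to 0.85). Its paralogue Esrp1 was listed at 0 in both libraries. With the longest of its 7 transcripts, 3864 bases, a count of 0 allows a level of up to 0.0349 FPKM in resistant and 0.0338 FPKM in wild type cells. With the shortest, of 391 bases, it allows up to 0.560 FPKM in resistant and 0.542 FPKM in wild type cells. Grhl2 was listed at 0.15 FPKM in resistant and 0.17 FPKM in wild type cells, about 17 fragments of its longest transcript in the resistant and 20 in the wild type library, with an FPKM ratio of 0.89 (0.43 to 1.76). Esrp1 lies on chromosome 4 (11331933 to 11386783) and Grhl2 on chromosome 15 (37233036 to 37363569).

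The Esrp2 value carries a limit of position. Esrp2 lies on chromosome 8 (106130319 to 106136974), and 219 of its exon bases (5.05%) overlap exons of Nfatc3, a transcription factor gene on the opposite strand, and 119 those of the non-coding gene 1810019D21Rik. Nfatc3 stood at 15.4 FPKM in resistant and 24.5 FPKM in wild type cells, and 1810019D21Rik at 1.17 FPKM in resistant and 5.29 FPKM in wild type cells, so both were lower in resistant cells like Esrp2. The sources used here do not say whether reads were assigned by strand, and the part of these neighbours in the Esrp2 value was not tested.

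**Figure D2:**
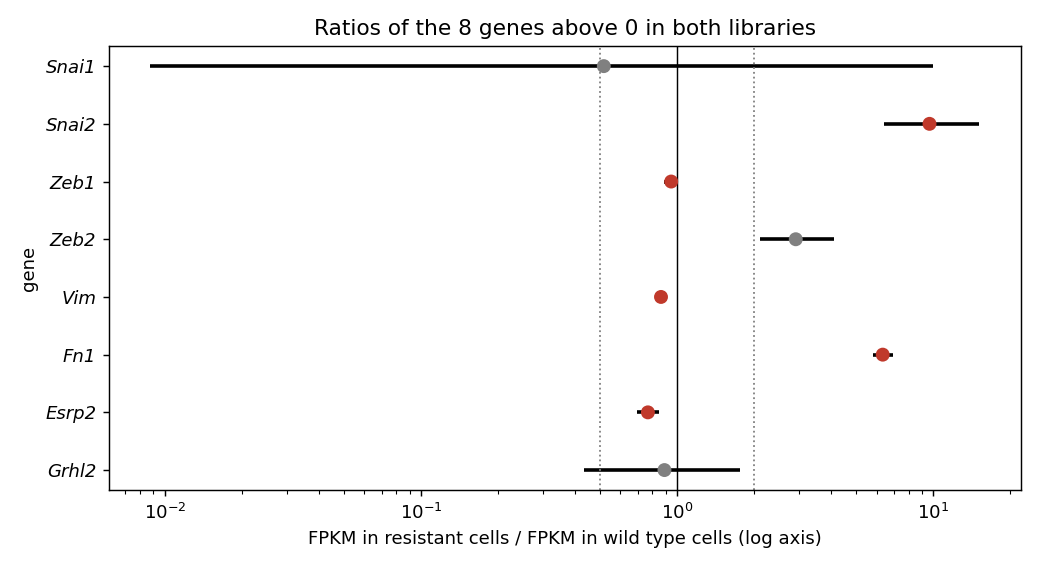
FPKM in resistant cells divided by FPKM in wild type cells, on a log axis, for the 8 genes above 0 in both libraries; bars are 95% exact binomial intervals of the fragments and dotted lines mark 2-fold. Red points are measured genes and grey points are genes below 1 FPKM in both libraries; Snai2 at 9.66 and Fn1 at 6.34 lie to the right of 2-fold with their whole intervals, as does Zeb2 at 2.90, while Snai1 spans 0.009 to 9.92.

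Ordered by level in resistant cells, Vim was followed by Fn1 (18.6 FPKM), Zeb1 (14.99), Esrp2 (9.33), Snai2 (5.62), Zeb2 (0.69), Grhl2 (0.15) and Snai1 (0.03 FPKM), with Twist1 and Esrp1 at 0. Of neighbours in this order, the counting intervals of Grhl2 (0.09 to 0.24 FPKM) and Snai1 (0.0007 to 0.16 FPKM) overlapped, and that of Snai1 overlapped those of the genes at 0. In wild type cells Vim was followed by Zeb1, Esrp2, Fn1, Snai2, Zeb2, Grhl2, Twist1, Snai1 and Esrp1. There the intervals of Zeb2 (0.18 to 0.31 FPKM), Grhl2 (0.11 to 0.27 FPKM), Twist1 (0.02 to 0.25 FPKM) and Snai1 (0.007 to 0.21 FPKM) overlapped each with the next, and that of Snai1 with that of Esrp1, listed at 0. Zeb1 stood above Esrp2 in both libraries, and Fn1 stood above Zeb1 in resistant and below Esrp2 in wild type cells.

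The genes beside Snai2 and Fn1 differed less than Snai2 and Fn1 did. Over the 10 nearest measured protein-coding genes of Snai2, 5 to each side, the log2 ratio had a median of 0.28 and ran from -0.74 to 1.39. The highest was Abcc1, a drug efflux transporter gene next to Snai2, at 42.4 FPKM in resistant and 15.5 FPKM in wild type cells. The 10 around Fn1 had a median of 0.53, from -1.19 to 1.17, with the purine synthesis gene Atic at 74.7 FPKM in resistant and 49.1 FPKM in wild type cells on one side and Pecr at 9.66 FPKM in resistant and 3.73 FPKM in wild type cells on the other. Around the other 8 genes the medians lay between -0.36, at Esrp2, and 0.34, at Esrp1. Esrp1 and Grhl2 sat at or near 0 between expressed genes, such as Virma beside Esrp1 (9.56 FPKM in resistant, 8.54 FPKM in wild type cells) and Zfp706 beside Grhl2 (152 FPKM in resistant, 167 FPKM in wild type cells).

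Both libraries had strong keratin and E-cadherin expression beside high Vim. Among keratins of simple ductal epithelium, Krt8 stood at 1722 FPKM in resistant and 1176 FPKM in wild type cells, Krt18 at 1864 FPKM in resistant and 1123 FPKM in wild type cells, and Krt19 at 1738 FPKM in resistant and 1332 FPKM in wild type cells. Cdh1, which encodes E-cadherin and is the classic target of the SNAIL and ZEB factors, stood at 164 FPKM in resistant and 206 FPKM in wild type cells. Of 10 ductal markers 8 were measured. The 2 that were not were Epcam, at 0.10 FPKM in resistant and 0.21 FPKM in wild type cells, and Cldn4, at 0.05 FPKM in resistant cells and listed at 0 in wild type cells. Bulk RNA does not show whether the same cells hold keratins and Vim, and fewer cells of a type and less RNA per cell cannot be told apart. Fibroblasts also make Vim and Fn1: 0 of 10 fibroblast markers reached 1 FPKM, their summed level was 0.24 FPKM in resistant and 0.34 FPKM in wild type cells, and 5 of them, among them Col1a2, Fap and Thy1, were listed at 0 in both. Of 10 leukocyte markers 3 were measured, Cd14 (25.7 FPKM in resistant, 36.8 FPKM in wild type cells), Cd68 (5.48 FPKM in resistant, 1.17 FPKM in wild type cells) and Lyz2 (1.53 FPKM in resistant, 0.36 FPKM in wild type cells), with a summed level over the list of 33.0 FPKM in resistant and 38.5 FPKM in wild type cells. Their part in the values of the 10 genes was not tested. The pan-leukocyte marker Ptprc stood at 0.23 FPKM in resistant cells and was listed at 0 in wild type cells, and Cd3e, a marker of T cells, was listed at 0 in both. None of 8 endothelial markers reached 1 FPKM.

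Of 19 epithelial adhesion genes known to be repressed by SNAIL or ZEB factors, 10 were measured. In resistant cells 0 were at least 2-fold higher and 2 at least 2-fold lower, beside 7.90% and 8.37% of all measured genes. The median log2 ratio was 0.03, or -0.06 after rescaling to an equal upper quartile. The lower ones were Crb3, which encodes a polarity protein (9.26 FPKM in resistant, 24.1 FPKM in wild type cells), and the tight junction gene Ocln (2.61 FPKM in resistant, 7.13 FPKM in wild type cells). The other 9 were below 1 FPKM in both libraries, among them Cldn3, Cldn4, Cldn7, Rab25 and St14. The list held abundant genes, such as Cdh1, Jup (100.1 FPKM in resistant, 85.1 FPKM in wild type cells) and Dsp, beside nearly silent ones.

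The promoters show where the E-box letters stand, and 4 are printed because they contrast a nearly silent repressor gene (Snai1), an abundant gene (Vim), a nearly silent adhesion gene (Epcam) and an expressed one that was lower in resistant cells (Crb3). Each runs 5′ to 3′ from 250 bases before to 50 after a RefSeq start site on GRCm38.p6, on the + strand, and capitals mark CACCTG or its reverse complement CAGGTG, the form of E-box bound by SNAIL and ZEB.
Snai1, chr2:167537945-167538244: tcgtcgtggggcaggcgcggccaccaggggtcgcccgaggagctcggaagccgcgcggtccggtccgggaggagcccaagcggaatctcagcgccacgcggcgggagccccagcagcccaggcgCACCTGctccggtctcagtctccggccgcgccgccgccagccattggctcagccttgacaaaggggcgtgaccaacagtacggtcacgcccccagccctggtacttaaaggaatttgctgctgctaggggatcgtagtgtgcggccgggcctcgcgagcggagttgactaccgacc
Vim, chr2:13574061-13574360: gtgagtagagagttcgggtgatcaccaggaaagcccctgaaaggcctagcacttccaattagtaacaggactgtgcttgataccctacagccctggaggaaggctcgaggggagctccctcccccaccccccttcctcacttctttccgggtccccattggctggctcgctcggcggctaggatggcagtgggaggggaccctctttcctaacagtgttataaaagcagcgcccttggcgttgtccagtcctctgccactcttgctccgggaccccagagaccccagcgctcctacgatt
Epcam, chr17:87635729-87636028: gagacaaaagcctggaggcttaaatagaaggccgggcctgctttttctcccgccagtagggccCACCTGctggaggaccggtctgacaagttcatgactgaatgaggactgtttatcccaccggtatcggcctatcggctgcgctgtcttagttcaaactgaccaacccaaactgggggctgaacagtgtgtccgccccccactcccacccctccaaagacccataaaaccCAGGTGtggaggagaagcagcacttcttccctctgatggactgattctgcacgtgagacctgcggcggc
Crb3, chr17:57061951-57062250: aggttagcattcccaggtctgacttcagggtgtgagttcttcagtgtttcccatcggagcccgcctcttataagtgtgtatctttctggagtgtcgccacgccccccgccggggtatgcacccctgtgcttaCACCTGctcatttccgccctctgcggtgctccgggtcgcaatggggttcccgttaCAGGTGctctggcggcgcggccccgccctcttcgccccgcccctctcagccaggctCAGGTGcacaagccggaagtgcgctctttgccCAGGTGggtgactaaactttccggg
The Snai1 window holds 1 such E-box, its first base at position -126 from the start site, and the Vim window none. The Epcam window holds 2, at -187 and -19, and the printed Crb3 window 4, at -118, -63, -7 and 25. In a second Crb3 window, from another start site, the same 4 stand at -148, -93, -37 and -5. Promoter windows were matched for 4 of the 10 genes (Snai1, Zeb2, Twist1 and Vim), in 7 windows, of which the 1 of Snai1 held an E-box, as did 20.2% of all 32851 windows. Of 13 genes of the adhesion list with a window, 11 held at least 1 E-box in a window, whereas 22.6% of all 27025 genes did; the list was chosen from genes known as targets, so this share is no independent evidence. Genes at both ends of the range of levels held it: Cldn3, Cldn4, Cldn7, Epcam and Rab25 near 0, and Dsp, Patj and Crb3 among those measured. The GRHL letters AACCGGTT, searched likewise on both strands (they read the same on each and do not overlap the E-box letters), stood in 0 of the 7 windows, and in 0.15% of all windows. A match is a description of letters and not of binding.

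**Figure D3:**
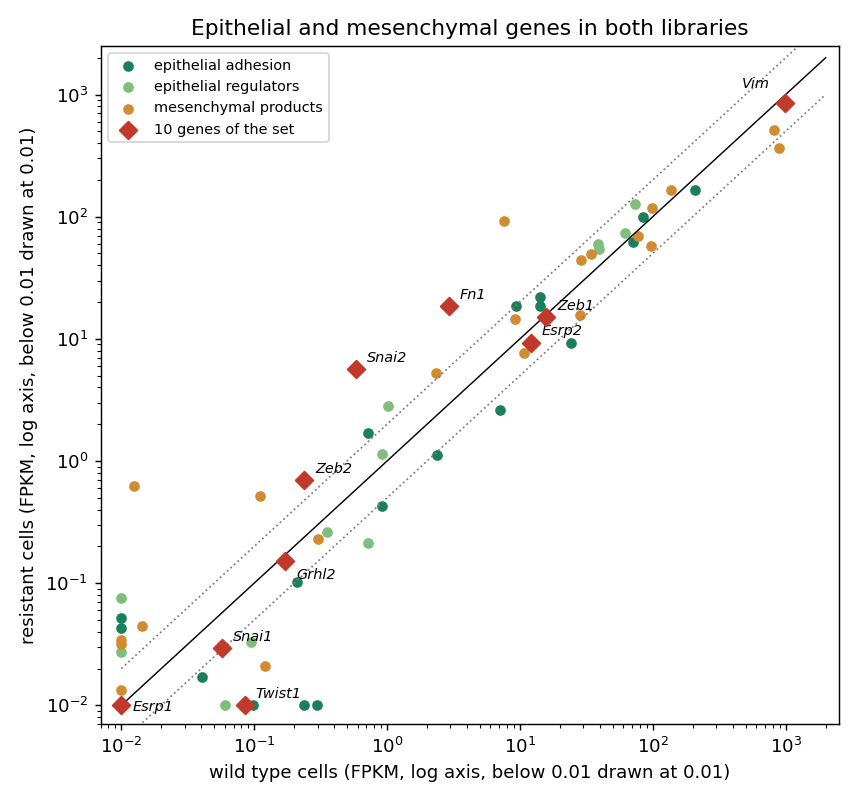
FPKM in resistant cells (vertical) against FPKM in wild type cells (horizontal), both on log axes, for the 10 genes (red diamonds), epithelial adhesion genes, other epithelial regulators and other mesenchymal products; values below 0.01 are drawn at 0.01, the line is equality and dotted lines mark 2-fold. Snai2, Fn1 and the low gene Zeb2 lie above the upper dotted line, Vim, Zeb1 and Esrp2 between the lines, and Esrp1 and Twist1 at the lower edge.

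Among genes that passed the level filter, most other EMT factors were lower and the other epithelial regulators higher in resistant cells, most within 2-fold. Of 15 further EMT factors 8 were measured, with a median log2 ratio of -0.55. In resistant cells 0 were at least 2-fold higher and 2 at least 2-fold lower, beside 7.90% and 8.37% of all measured genes. Hmga2, an architectural chromatin protein, stood at 3.93 FPKM in resistant and 17.4 FPKM in wild type cells, and the forkhead factor Foxq1 at 6.56 FPKM in resistant and 15.4 FPKM in wild type cells. Twist2 stood at 1.04 FPKM in resistant and 0.66 FPKM in wild type cells, and Prrx1 at 0.11 FPKM in resistant and 0.13 FPKM in wild type cells. Of 15 further epithelial regulators 6 were measured, all with a log2 ratio between 0 and 1, and a median of 0.54. Rescaling the resistant library, to an equal median or upper quartile, left all 6 above 0. Without the level filter the medians were -0.15 for the EMT factors and 0.13 for the epithelial regulators, and at a pseudocount of 0.1 the count of epithelial regulators at least 2-fold higher was 1. Rbm47, an RNA-binding protein of epithelia, stood at 73.8 FPKM in resistant and 61.8 FPKM in wild type cells, and Grhl1, a paralogue of Grhl2, at 1.13 FPKM in resistant and 0.92 FPKM in wild type cells. Grhl1 passed the level filter through the resistant library alone, so as a measured gene its log2 ratio could only lie above 0. Klf5, chosen after its values were seen, was highest at 127 FPKM in resistant and 73.6 FPKM in wild type cells. Grhl3 (0.03 FPKM in resistant, 0.10 FPKM in wild type cells), Ovol2 (listed at 0 in resistant, 0.06 FPKM in wild type cells) and Ovol1, listed at 0 in both, were as low as Grhl2 or lower.

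The miR-200 microRNAs, which lower ZEB1 and ZEB2 by pairing through their seed (bases 2 to 8, in capitals, RefSeq on GRCm38.p6), were searched for as genes in the table.
miR-200b: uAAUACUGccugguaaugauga
miR-200c: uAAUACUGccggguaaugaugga
miR-429: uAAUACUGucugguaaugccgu
miR-200a: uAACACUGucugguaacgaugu
miR-141: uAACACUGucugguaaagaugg
The first 3 share the seed AAUACUG and the last 2 the seed AACACUG. Their hairpin genes, of 69 to 90 bases, were listed at 0 in both libraries, and so was Mir205. The 5 hairpins are shorter than the 160 bases that the fit of fragment steps takes off every transcript, so the 0 does not show whether they were expressed.

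Splicing factors that share or oppose ESRP-controlled exons were on the lower side in resistant cells. Of 23 such genes 18 were measured, 5 at least 2-fold lower and 0 at least 2-fold higher. Over all measured genes the shares were 8.37% lower and 7.90% higher. The median log2 ratio of the list was -0.38, and 14 of the 18 had a ratio below 0. Hnrnpm, which promotes mesenchymal exon use and opposes ESRP1, stood at 38.9 FPKM in resistant and 102 FPKM in wild type cells. The SR protein gene Srsf1 stood at 73.9 FPKM in resistant and 222 FPKM in wild type cells, Celf2 at 1.17 FPKM in resistant and 7.22 FPKM in wild type cells, and Rbm4 at 5.39 FPKM in resistant and 16.2 FPKM in wild type cells. The fifth, Ptbp2, named after its values were seen, lay just past the line, at 3.91 FPKM in resistant and 8.82 FPKM in wild type cells. Rbfox2, a splicing regulator of mesenchymal exons, stood at 12.7 FPKM in resistant and 16.8 FPKM in wild type cells, and Qk, another, at 54.0 FPKM in resistant and 54.4 FPKM in wild type cells.

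Of 28 genes with exons under ESRP control 27 were measured, with a median log2 ratio of -0.12. In resistant cells 4 were at least 2-fold higher and 2 at least 2-fold lower, beside 7.90% and 8.37% of all measured genes. Fgfr2, whose pair of alternative exons is the best known ESRP target, stood at 0.06 FPKM in resistant and 1.53 FPKM in wild type cells. It passed the level filter through the wild type library alone, and with a filter of 5 FPKM the count at least 2-fold lower was 1. Fgfr1 stood at 0.08 FPKM in resistant cells and was listed at 0 in wild type cells. Cd44, which encodes a hyaluronan receptor with variant exons, stood at 118 FPKM in resistant and 99.4 FPKM in wild type cells, the p120 catenin gene Ctnnd1 at 58.9 FPKM in resistant and 84.0 FPKM in wild type cells, and Enah, an actin regulator, at 1.44 FPKM in resistant and 3.31 FPKM in wild type cells. The endocytic dynamin gene Dnm2 (79.6 FPKM in resistant, 31.2 FPKM in wild type cells), Ralgps2, Magi1 and Uap1 were the higher ones, and Tcf7l2, a Wnt pathway factor (12.8 FPKM in resistant, 31.8 FPKM in wild type cells), was the other lower one. These are whole-gene levels; exon use is not in the table.

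Other mesenchymal products, with Fn1 and Vim set apart, showed no common direction: of 25 genes 13 were measured, 1 at least 2-fold higher and 1 at least 2-fold lower, with a median log2 ratio of 0.25. S100a4, the lower one, stood at 366 FPKM in resistant and 898 FPKM in wild type cells, and the N-cadherin gene Cdh2 at 15.7 FPKM in resistant and 28.6 FPKM in wild type cells. Fibrillar collagen genes were near 0, Col1a1 at 0.04 FPKM in resistant and 0.01 FPKM in wild type cells. Of 15 receptors and matrix partners of fibronectin 11 were measured, 0 at least 2-fold higher and 1 at least 2-fold lower, Ltbp1, which tethers latent TGF-beta to the matrix (3.46 FPKM in resistant, 12.7 FPKM in wild type cells). Itga5, the alpha chain of the classic fibronectin receptor, stood at 5.29 FPKM in resistant and 2.35 FPKM in wild type cells, a log2 ratio of 0.91, and its partner Itgb1 at 165 FPKM in resistant and 137 FPKM in wild type cells. The matrix gene Fbln1, named after its values were seen, lay close to the line too, with a log2 ratio of 0.95, and at a pseudocount of 0.1 the count at least 2-fold higher in this list was 2. Among 15 intermediate filament and linker genes, in which Vim acts, 11 were measured, with Krt14 (47.0 FPKM in resistant, 8.51 FPKM in wild type cells) and Krt7 at least 2-fold higher, and Lmnb1 (34.9 FPKM in resistant, 89.3 FPKM in wild type cells) and the stem-cell filament gene Nes at least 2-fold lower.

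Of 25 ligands and receptors that can induce EMT, 14 were measured, with a median log2 ratio of 0.43. In resistant cells 4 were at least 2-fold higher and 0 at least 2-fold lower, beside 7.90% and 8.37% of all measured genes. The higher ones were Egfr (8.12 FPKM in resistant, 0.93 FPKM in wild type cells), Tgfb2 (1.63 FPKM in resistant, 0.09 FPKM in wild type cells), the Notch ligand Jag1 (35.3 FPKM in resistant, 14.7 FPKM in wild type cells) and Bmp4 (log2 ratio 1.18). Egfr and Tgfb2, like Snai2, passed the level filter through the resistant library alone, and without the filter the median of the list was 0.04. Tgfb1 stood at 41.1 FPKM in resistant and 28.3 FPKM in wild type cells, its type 1 receptor gene Tgfbr1 at 6.56 FPKM in resistant and 11.1 FPKM in wild type cells, and Tgfbr2 at 25.1 FPKM in resistant and 25.9 FPKM in wild type cells. Of 13 transcription factors known to act on Snai1, all measured, 1 was at least 2-fold higher, the hypoxia factor Hif1a (82.0 FPKM in resistant, 28.2 FPKM in wild type cells), and 1 at least 2-fold lower, the NF-kB subunit gene Rela (13.8 FPKM in resistant, 40.3 FPKM in wild type cells).

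Corepressors with which SNAIL and ZEB work were nearly level: 19 of 20 genes were measured, 1 was at least 2-fold higher and 0 were at least 2-fold lower, with a median log2 ratio of -0.01. The chromatin remodeller gene Smarca4 stood at 89.7 FPKM in resistant and 40.4 FPKM in wild type cells, and the histone demethylase gene Kdm1a lay just inside the line, at 36.5 FPKM in resistant and 17.9 FPKM in wild type cells with a log2 ratio of 0.99. Of 21 genes of SNAIL turnover and localisation 18 were measured, 0 at least 2-fold higher and 2 at least 2-fold lower, Nfe2l2 (43.7 FPKM in resistant, 150 FPKM in wild type cells), which encodes the oxidative stress factor NRF2, and the phosphatase gene Ctdsp1 (14.7 FPKM in resistant, 40.8 FPKM in wild type cells). Gsk3b, whose kinase marks SNAIL for degradation, stood at 28.1 FPKM in resistant and 25.9 FPKM in wild type cells. These lists bear on SNAIL protein, which RNA levels do not measure. Some genes stand in more than 1 list, so the counts are not independent.

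**Figure D4:**
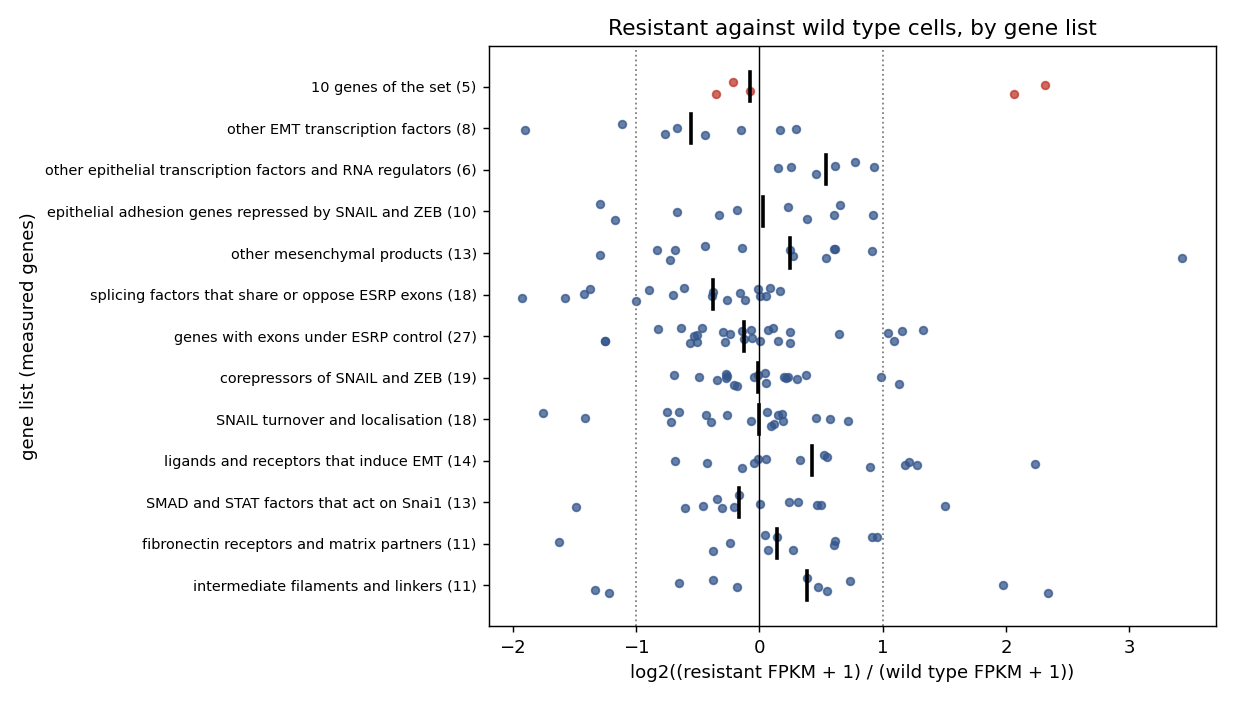
Log2((resistant FPKM + 1)/(wild type FPKM + 1)) of each measured gene, by list; each point is a gene, black bars are list medians, dotted lines mark 2-fold, and the number of measured genes is in brackets. The 5 measured genes of the set (red) fall into 3 near 0 and 2 beyond 2, and over the lists drawn, which leave out the cell type markers, the medians run from -0.55 for other EMT factors to 0.54 for other epithelial regulators.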

How the data were processed

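RNA of 1 gemcitabine-resistant and 1 wild type KPC2 library was sequenced. HISAT2, StringTie and GRCm38 are named in the submitters' processing notes, without role or version. The deposited table gives 1 value per gene and library, under a header that leaves the unit open. They were taken as FPKM computed by the authors, because their sums differ (1197280 in the resistant and 998508 in the wild type library) and low values fall on whole-fragment steps. From 1 library per side, the authors deposited for each gene a p-value, a q-value, a test statistic (a score) and a log2 fold change, quoted here only as theirs.

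Rows of 1 symbol were summed, and 13 rows marked failed or too deep, none of them of the 10 genes, were left out. The 10 genes and all lists were chosen with earlier results of these data known; genes named were the 10, members of each list at least 2-fold apart (up to 4 in each direction), a fixed set of 25 other genes, and neighbours by position; markers and genes near 0 in a list were named after their values were seen. Values of some list genes are not reported here. Transcript lengths and positions came from GENCODE M21 on GRCm38; all 10 genes lay inside the authors' loci. Fragments were recovered from single-transcript genes of 1000 to 8000 bases, after taking 160 bases off each length. Of values up to 5.5 fragments, 93.8% in the resistant and 93.0% in the wild type library lay within 0.1 of a whole fragment, worth 0.0431 FPKM in the resistant and 0.0417 FPKM in the wild type library at 1 kb. A limit of 3 fragments was used for values listed at 0. The alternatives were pseudocounts of 0.1 and 5, no level filter or one of 5 FPKM, rescaling to an equal median or upper quartile, the highest row per symbol, a 4-fold line, protein-coding genes only, and the shortest transcript. The steps were tested on simulated data. Scripts ran under Python 3.11.15 with scipy 1.17.1, pandas 2.3.3, numpy 2.4.6 and, for figures, matplotlib 3.10.9.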

Additional observations from a re-analysis of the deposited data

How the results depend on the processing

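Of the 10 genes, 2 were at least 2-fold higher and 0 at least 2-fold lower under every setting tried except a pseudocount of 5, under which 1 was higher, because the log2 ratio of Snai2 became 0.93. Over all settings the log2 ratio of Snai2 ran from 0.93 to 3.07, that of Fn1 from 1.57 to 2.62 and that of Zeb2 from 0.12 to 1.23, the last above 1 at a pseudocount of 0.1, where Zeb2 stays under the level filter. No called ratio changed sign, but among these settings only rescaling could change one, and its factors on the resistant library were 0.988 and 0.940. Over all measured genes, 428 were higher and 297 lower at a pseudocount of 5, 220 and 128 at the 4-fold line, and 1553 were lower at a pseudocount of 0.1. With the longest transcript, the counting interval of the ratio left out 1 for 5 of the 10 genes (Snai2, Zeb2, Vim, Fn1 and Esrp2), and with the shortest for 3 (Snai2, Vim and Fn1), since fewer fragments then stand behind a value. The same count was not made over all measured genes, and such intervals are narrow for abundant genes such as Vim, so these counts do not set the 10 genes apart. Of 361 context list values under other settings, 312 stayed the same by the limits used (a count within 1.5 times, a median within 0.1) and 49 moved, among them the genes with ESRP exons at least 2-fold higher, 2 after rescaling to an equal upper quartile and 4 as reported. Depth limits Snai1, Twist1, Esrp1 and Grhl2, which rest on 0 to 20 fragments. No paired analysis was possible because each group has 1 library, and no result has a test.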
